A study of Mus musculus with 8 samples.

Results

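Condensin is the chromosome-compacting machine of mitosis, and its 8 subunit genes were followed by PRO-seq through mitotic exit in mouse induced pluripotent stem cells. The genes were chosen by symbol (Smc2, Smc4, Ncapd2, Ncapd3, Ncapg, Ncapg2, Ncaph and Ncaph2), and all 8 were present among the 14861 genes measured. PRO-seq reads RNA polymerases caught in the act of transcription, through the labelled nucleotides they add to nascent RNA in isolated nuclei. Its signal over a gene is therefore a measure of ongoing transcription and not of mRNA or protein.

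The cells were a clonal mouse line with the FUCCI2 cell-cycle reporter, so the data describe 1 clone. In every group they grew on irradiated feeder cells in medium with serum, LIF and inhibitors of MEK and GSK3. The mitotic group had been held with nocodazole (200 ng/ml, 6 h) and shaken off, the early G1 and late G1 groups had been arrested in the same way and then released for 1 h and 3 h, and the asynchronous group was left untreated. Each group had 2 libraries by the labels (8 in all), whereas the table holds 1 normalized value per gene and group. Its early G1 column was taken as the 1 h release and its late G1 column as the 3 h release, from what the names mean. No spread between libraries can therefore be given, no difference here has a replicate check, and no p-value is printed. In such bulk samples, fewer transcribing cells and less transcription per cell cannot be told apart. Depth is unknown. Of 8 pluripotent cell markers 7 were present, with a summed signal between 0.279% and 0.308% of each column's total, and none of the 7 was at 0. Of 12 markers of fibroblast feeders 8 were present, at 0.0266% to 0.0394% of the column totals, with Twist1 at 0 in mitosis.

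Condensin is a ring built on a pair of SMC ATPases, SMC2 and SMC4, that condensin I and condensin II have in common. A kleisin closes the ring (NCAPH in condensin I, NCAPH2 in condensin II), and the kleisin carries a pair of HEAT-repeat subunits (NCAPD2 and NCAPG in condensin I, NCAPD3 and NCAPG2 in condensin II). Both complexes extrude DNA into loops. Condensin II is nuclear through the cycle and begins compaction in prophase, while most condensin I reaches the chromosomes only once the nuclear envelope has broken down. Many genes whose products act in mitosis carry a cell cycle genes homology region (CHR) near their start, a short element with the core TTTGAA or TTCGAA through which the DREAM and MuvB complexes act.

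The promoters are shown because several of them carry this core. RefSeq promoters (GRCm38.p6, from 250 bases before to 50 bases after a start) were matched for 7 of the 8 subunits. The CHR core, searched as TTTGAA or TTCGAA on both strands, was found in 5 of the 7, against 13.4% of the 11496 genes of the table with a matched promoter. The 150 bases before the RefSeq start of each gene are printed 5′ to 3′ on the gene's strand, with the CHR core in capitals (on the other strand in Smc2, where it reads TTCAAA). They lie at chr4:52439071-52439220 (plus strand), chr6:125191587-125191736 (minus), chr5:45669775-45669924 (plus), chr2:127133955-127134104 (minus), chr9:27030015-27030164 (plus), chr12:116405286-116405435 (plus) and chr15:89355569-89355718 (plus).
Smc2: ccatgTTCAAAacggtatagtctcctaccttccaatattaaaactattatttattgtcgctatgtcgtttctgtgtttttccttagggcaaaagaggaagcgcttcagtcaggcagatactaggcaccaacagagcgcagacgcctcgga
Ncapd2: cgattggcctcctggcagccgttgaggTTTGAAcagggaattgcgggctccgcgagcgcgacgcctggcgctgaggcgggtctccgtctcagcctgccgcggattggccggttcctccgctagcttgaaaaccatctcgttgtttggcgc
Ncapg: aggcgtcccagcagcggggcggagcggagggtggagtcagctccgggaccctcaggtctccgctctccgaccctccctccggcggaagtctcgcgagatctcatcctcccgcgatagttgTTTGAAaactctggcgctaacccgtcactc
Ncaph: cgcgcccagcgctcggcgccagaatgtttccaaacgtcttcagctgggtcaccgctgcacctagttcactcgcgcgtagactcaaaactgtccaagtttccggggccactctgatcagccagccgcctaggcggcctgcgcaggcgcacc
Ncapd3: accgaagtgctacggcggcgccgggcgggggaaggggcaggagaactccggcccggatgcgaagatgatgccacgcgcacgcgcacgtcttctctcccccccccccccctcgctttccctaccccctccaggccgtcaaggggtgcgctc
Ncapg2: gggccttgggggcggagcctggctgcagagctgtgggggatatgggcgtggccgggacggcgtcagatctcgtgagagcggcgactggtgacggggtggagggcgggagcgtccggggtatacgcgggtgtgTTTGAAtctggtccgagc
Ncaph2: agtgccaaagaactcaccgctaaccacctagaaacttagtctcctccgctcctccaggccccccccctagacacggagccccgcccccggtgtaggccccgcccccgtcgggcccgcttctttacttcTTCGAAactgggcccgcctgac
In Ncapg, Ncapg2 and Ncaph2 the core lay close to the RefSeq start, with its first base 30, 18 and 22 bases upstream. In Ncapd2 and Smc2 it lay further from the RefSeq start, at 123 and 145 bases, and Smc2 had another core 27 bases downstream of that start. The windows of Ncaph and Ncapd3 did not hold these letters. The E2F words TTTGGCGC, TTTCGCGC, TTTCCCGC and TTTGCCGC, which read the site of the G1/S factors on either strand, were in 3 of the 7 windows (Ncapd2, Ncapg and Ncapg2), against 3.93% of all genes. In related lists described below, the E2F words were in 3 of 8 matched promoters of cohesin and its regulators and 2 of 6 of SMC5/6. They were in 1 of 14 for the condensin partners and regulators. The NF-Y word CCAAT was in 3 of 7 (Smc2, Ncapd2 and Ncapg), against 37.9% of all genes. None of these words overlapped another of the kinds searched. A match describes the letters and does not show a bound site. The start in the table was within 34 bp of the RefSeq start for 5 of the 7, but 115 bp upstream of it for Ncapd2 and 484 bp downstream of it for Ncapd3. The Ncapd2 core is therefore far from the RefSeq start but lies just upstream of the start in the table.

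**Figure D1:**
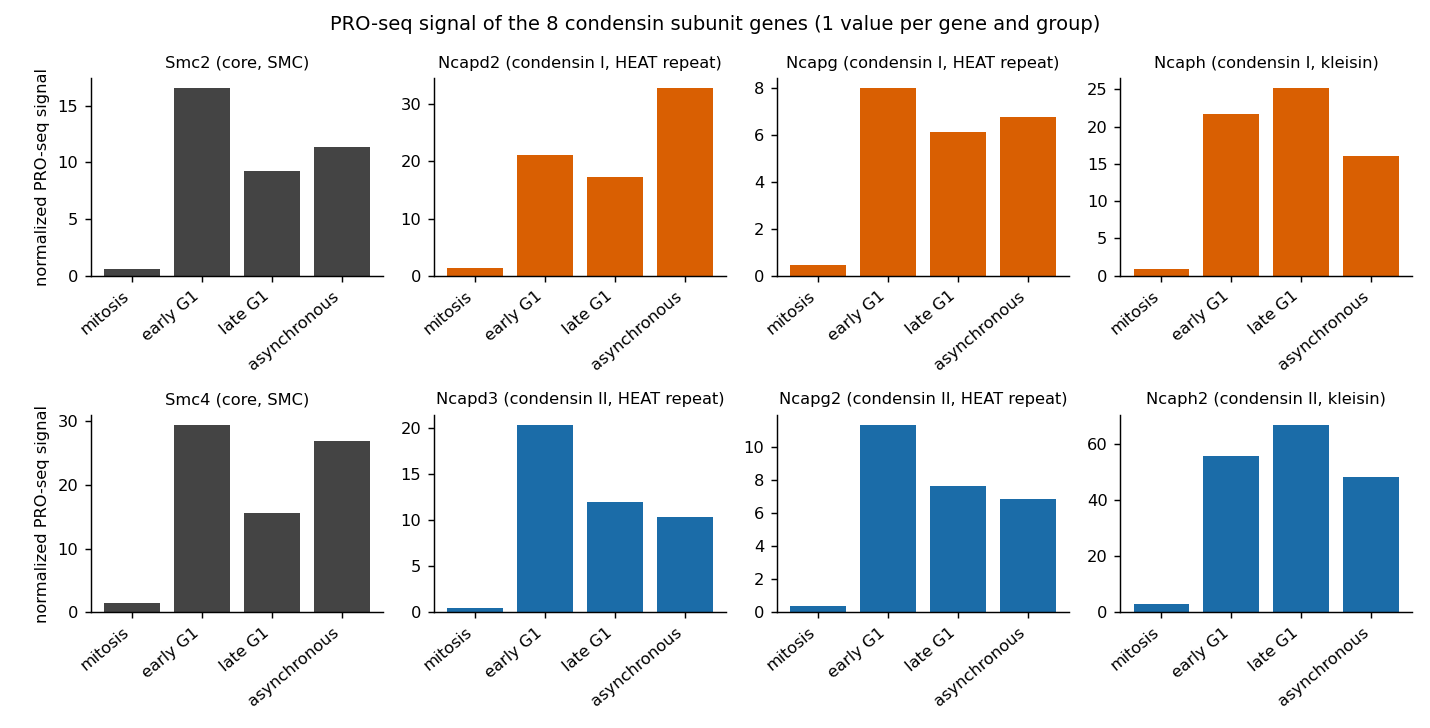
Normalized PRO-seq signal (vertical axis, from 0, own scale in each panel) of the 8 subunit genes in mitosis, early G1, late G1 and asynchronous cells (1 bar per group, no replicate values). As the authors scaled the columns, all 8 are lowest in mitosis, a shared fall that equal medians remove by construction. Of the 8, 5 are highest in early G1 (44.2% of all genes are). Ncaph and Ncaph2 are highest in late G1 (33.9% of all genes), and Ncapd2 in asynchronous cells (21.8%). With equal medians or quantile normalization Smc4 and Ncapg are no longer highest in early G1.

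The SMC genes encode the ATPase pair of both complexes. Smc2 (chromosome 4, plus strand, TSS at 52439243 in GRCm38, RefSeq span of 49145 bp) had a signal of 0.584 in mitosis, 16.6 in early G1 and 9.27 in late G1, against 11.3 in asynchronous cells. Smc4 (chromosome 3, plus strand, TSS at 69005008, span of 29886 bp) had 1.40, 29.5, 15.6 and 26.9 in the same order. As deposited, both genes were highest in early G1 and below the asynchronous level in late G1, though with equal medians or quantile normalization Smc4 was no longer highest in early G1.

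The span of Smc4 also holds the hairpins of miR-15b and miR-16-2, microRNAs that are known to restrain G1 cyclins. Their mature 5p forms (RefSeq, GRCm38.p6, plus strand, chr3:69009775-69009796 and chr3:69009918-69009939) are shown because transcription of Smc4 on the same strand runs across them, with the seed, bases 2 to 8, in capitals.
mmu-miR-15b-5p: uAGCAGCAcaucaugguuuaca
mmu-miR-16-5p: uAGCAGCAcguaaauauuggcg
They have the same seed, AGCAGCA. The level of either microRNA was not measured here.

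The condensin I subunits differed among themselves. Ncapd2, which encodes a HEAT-repeat subunit (chromosome 6, minus strand, TSS at 125191701, span of 24094 bp), had 1.34 in mitosis, 21.0 in early G1 and 17.3 in late G1, against 32.9 in asynchronous cells. It alone was below its asynchronous level at both G1 times both as deposited and under the other scalings tried. Smc4 and Ncapg were so only with equal medians or quantile normalization. Ncapg, the other HEAT-repeat gene (chromosome 5, plus strand, TSS at 45669919, span of 30657 bp), had 0.447, 8.02, 6.15 and 6.79 in the same order. Ncaph, the kleisin gene (chromosome 2, minus strand, TSS at 127133954, span of 30146 bp), had 0.865, 21.7, 25.2 and 16.1, so it was higher at 3 h than at 1 h and above the asynchronous level at both.

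Of the condensin II subunits, the HEAT-repeat genes followed a course of early G1 excess and the kleisin gene did not. Ncapd3 (chromosome 9, plus strand, TSS at 27030649, span of 66358 bp) had 0.471 in mitosis, 20.4 in early G1 and 12.0 in late G1, against 10.3 in asynchronous cells. Ncapg2 (chromosome 12, plus strand, TSS at 116405402, span of 58182 bp) had 0.387, 11.4, 7.66 and 6.87. Ncaph2 (chromosome 15, plus strand, TSS at 89355719, span of 17132 bp) had 3.00, 55.9, 67.0 and 48.3, which places its highest value in late G1, as for the condensin I kleisin. The far end of Ncaph2 overlaps Sco2 and Tymp by 1221 and 1220 bp and that of Ncapg overlaps Lcorl by 3367 bp in RefSeq, and whether strand was used in counting is not given in the sources.

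In arrested cells the subunit genes stood about as far down as the rest of the genome. Ratios here are log2 of (signal + 0.1) in the group named first over (signal + 0.1) in the other, and a gene counts as called at a change of at least 2-fold. All 8 subunits were called lower in mitosis than in asynchronous cells, as were 99.1% of the 14444 genes with a ratio, and none was called higher, beside 0.0208% of genes. The share of the asynchronous signal that was left in mitosis ran from 4.09% for Ncapd2 to 6.59% for Ncapg, with a median of 5.28%, beside 5.36% over all genes. The median log2 ratio of the subunits was -4.07, against -3.89 over all genes, and 6 of the 8 lay below the median gene. That count depends on the pseudocount. By the share of signal left, without a pseudocount, Ncaph (5.37%) and Ncaph2 (6.21%) were above the 5.36% of all genes. The fall itself rests on the authors' scaling of the columns. Equal medians remove a fall shared by most genes by construction, so this setting cannot decide whether the fall is real. With it the ratios of Ncapg, Ncaph, Ncapg2 and Ncaph2 turn above 0. Ncapd2 remained the lowest of the 8 relative to the median gene as reported (-0.62), and lay below that gene under each alternative (-0.94 to -0.39).

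The return at 1 h was of the same general kind. All 8 subunits were called higher in early G1 than in mitosis, beside 99.3% of all genes, and none lower, beside 0.00692%. The median log2 ratio was 4.40 for the subunits and 4.21 for all genes. Ncapd3 had the highest ratio of the 8, with 20.4 in early G1 against 0.471 in mitosis, 43.2-fold, which placed it at percentile 94.0 of all genes. Ncapd2 had the lowest, with 21.0 in early G1 against 1.34 in mitosis, 15.7-fold, at percentile 35.4. Between them lay Ncapg2 (29.4-fold), Smc2 (28.4-fold), Ncaph (25.1-fold), Smc4 (21.1-fold), Ncaph2 (18.6-fold) and Ncapg (17.9-fold), on the signals as deposited. With equal medians or quantile normalization the ratios of Smc4, Ncapd2, Ncapg and Ncaph2 turn negative and the other 4 stay above 0.

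Set against asynchronous cells, early G1 spread the subunits over more than 1.5 units of log2. None of the 8 was called in either direction, beside 17.7% of all genes called higher and 9.53% called lower. Ncapd3 came nearest to a call, at 20.4 in early G1 against 10.3 in asynchronous cells (1.98-fold, log2 0.98, or 0.67 above the median gene). Ncapg2 followed at 11.4 in early G1 against 6.87 in asynchronous cells (1.66-fold, log2 0.72, or 0.42 above the median gene). Ncapd2 was lowest, at 21.0 in early G1 against 32.9 in asynchronous cells (log2 -0.64, or -0.94 relative to the median gene), and only 15.9% of genes had a lower ratio. Smc2 stood at 0.54, Ncaph at 0.43, Ncapg at 0.24, Ncaph2 at 0.21 and Smc4 at 0.13 on the log2 scale, around the 0.30 of the median gene, and the last 3 of these turn below 0 with equal medians or quantile normalization.

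**Figure D2:**
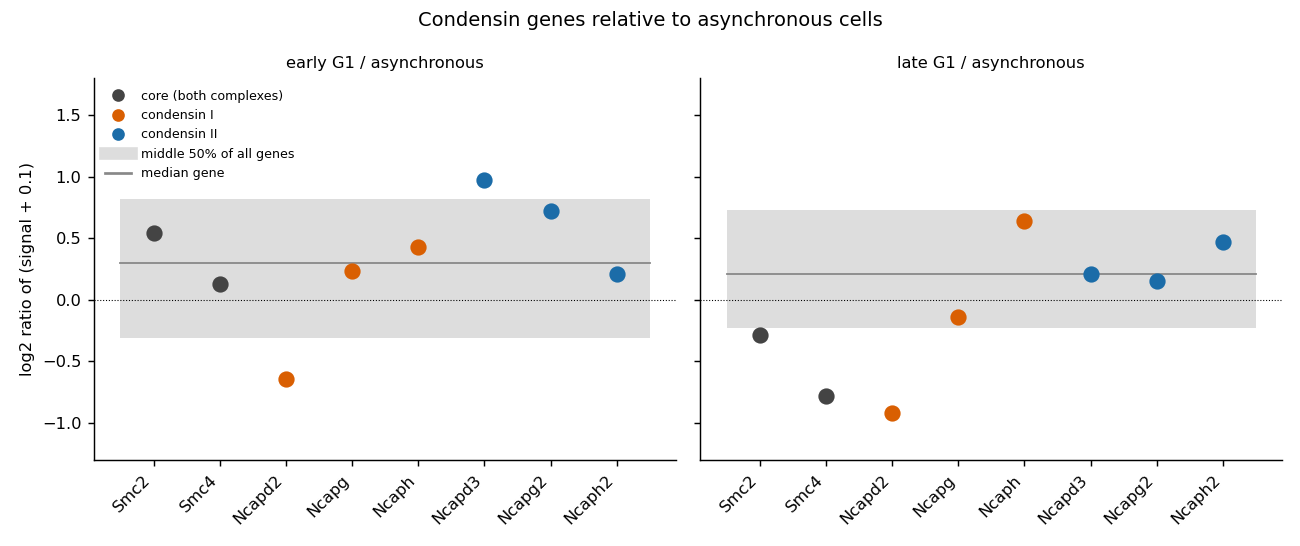
Log2 ratio of (signal + 0.1) of each subunit gene in early G1 (left) and late G1 (right) over asynchronous cells, with the median gene as a line and the middle 50% of all genes as a grey band. In early G1 Ncapd3 at 0.98 is above the band and Ncapd2 at -0.64 below it. In late G1 Smc2, Smc4 and Ncapd2 are below it. With equal medians or quantile normalization Smc4, Ncapg and Ncaph2 pass below 0 in early G1 and Ncapg2 does so in late G1.

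Signals at 3 h were set against those at 1 h, and no subunit was called, beside 15.1% of all genes called higher and 7.52% called lower in late G1 than in early G1. The 6 SMC and HEAT-repeat genes had lower signals in late G1 than in early G1, and both kleisin genes had higher ones. Smc4 stood at 15.6 in late G1 against 29.5 in early G1, 1.89-fold lower, and Smc2 at 9.27 in late G1 against 16.6 in early G1, 1.79-fold lower. At percentiles 9.77 and 12.5 these were the lowest ratios of the 8. The HEAT-repeat genes ranged from log2 -0.76 for Ncapd3 to -0.28 for Ncapd2. Ncaph stood at 25.2 in late G1 against 21.7 in early G1 (log2 0.22), and Ncaph2 at 67.0 in late G1 against 55.9 in early G1 (log2 0.26).

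None of these 8 signs changed under the 8 alternatives tried. Among those, only the pseudocounts, equal medians and quantile normalization can alter a subunit's ratio. Relative to the median gene, which was at -0.08, the pattern was the same in the values as reported, with both kleisin genes above it (by 0.30 and 0.34) and the other 6 below. Ncapd2 came to 0.01 above the median gene in the least favourable alternative. The kleisin differences are small, 1.16-fold for Ncaph, and no spread between libraries is at hand to set beside them. Of the 8 feeder markers present, 6 were called higher in late G1 than in early G1, while their summed signal was 128 in late G1 and 132 in early G1. Fn1 made up 61.3 of the first sum and 106 of the second. The feeder markers' part in the subunit values was not tested.

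**Figure D3:**
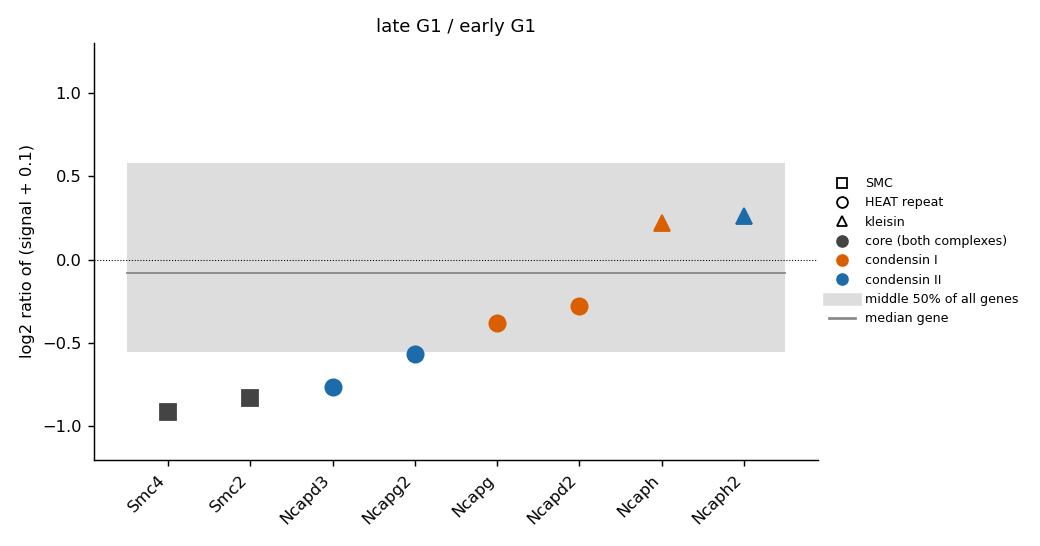
Log2 ratio of (signal + 0.1) in late G1 over early G1 for the 8 subunit genes in order of the ratio, with symbols for the role of the subunit and colours for the complex; the line is the median gene and the band the middle 50% of all genes. Smc4 at -0.92, Smc2 at -0.83, Ncapd3 at -0.76 and Ncapg2 at -0.56 are below the band, and Ncaph at 0.22 and Ncaph2 at 0.26 are the only subunits above 0.

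By 3 h the subunits stood on both sides of the asynchronous level. The median log2 ratio of late G1 to asynchronous cells was 0.01 for the subunits and 0.21 for all genes, and no subunit was called, beside 16.9% of all genes called higher and 5.14% called lower. Ncapd2 was 1.90-fold lower, at 17.3 in late G1 against 32.9 in asynchronous cells, and Smc4 1.73-fold lower, at 15.6 in late G1 against 26.9 in asynchronous cells. They lay at percentiles 6.04 and 8.04 of all genes, or at -1.13 and -0.99 relative to the median gene on the log2 scale. Ncapd2 passes the 2-fold line with equal medians (log2 -1.13) and with quantile normalization (log2 -1.09). Ncaph was 1.57-fold higher, at 25.2 in late G1 against 16.1 in asynchronous cells, and Ncaph2 1.39-fold higher, at 67.0 in late G1 against 48.3 in asynchronous cells. Smc2 (log2 -0.29), Ncapg (-0.14), Ncapg2 (0.15) and Ncapd3 (0.21) lay closer to the asynchronous level, and Ncapg2 turns to -0.05 with equal medians and -0.11 with quantile normalization.

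A constant factor on a column cancels, apart from the pseudocount, when each condensin II subunit is set against its condensin I counterpart. Quantile normalization does not cancel in this way. The kleisins stayed close, with Ncaph2 minus Ncaph at -0.22 in early G1, 0.04 from early to late G1 and -0.17 in late G1 (log2 ratios to asynchronous cells, and of late to early G1 for the middle value). Ncapg2 minus Ncapg was 0.48 in early G1 and 0.30 in late G1 relative to asynchronous cells. Ncapd3 and Ncapd2 were furthest apart: Ncapd3 minus Ncapd2 was 1.62 in early G1, a 3.07-fold difference in their ratios to asynchronous cells, and 1.14 in late G1. Over the 8 alternatives these 2 differences stayed between 1.58 and 1.63 and between 1.11 and 1.14. Only the pseudocounts, equal medians and quantile normalization among them can alter these differences. The SMC partners differed by -0.41 in early G1 and -0.50 in late G1 relative to asynchronous cells (Smc4 minus Smc2).

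The 3 condensin II genes had higher ratios of early G1 to asynchronous cells on average (mean log2 0.64) than the 3 condensin I genes (0.01), but the groups overlapped, since Ncaph at 0.43 exceeded Ncaph2 at 0.21. In late G1 the means were 0.28 for condensin II and -0.14 for condensin I, again with overlap. Of the 28 pairs of subunits, Ncaph and Ncaph2 had the most similar courses (Euclidean distance 0.30 over the log2 ratios of mitosis, early G1 and late G1 to asynchronous cells), and Ncapd2 and Ncapd3 the least similar (2.00). The 7 largest distances but 1 all involved Ncapd2; the exception was Smc4 with Ncaph (1.46).

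The authors' deposited table also gives each gene a temporal class, with no account of how it was made, so the class is not taken as independent of the signals. Smc4, Ncapg and Ncaph2 are in the class Early_Plateau, which holds 26.3% of all genes, and Smc2, Ncapd3 and Ncapg2 in Early_Spike, which holds 33.6%. Ncapd2 is in Gradual (15.4%) and Ncaph in Transient (24.7%). The subunits therefore fall in all 4 classes. The kleisin genes, whose courses were the closest of all pairs, are in different classes.

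Condensin acts with other mitotic proteins, and most of these genes stood below the asynchronous level in G1. A list of 18 partners and regulators was used, all present in the table. In late G1, 0 of the 8 subunits were called against asynchronous cells, while 10 of the 18 partners were called lower and 1 higher (Phf8, named after its value was seen). The median log2 ratio was 0.01 for the subunits, against -1.14 for the partners and 0.21 for all genes, of which 16.9% were called higher and 5.14% lower. In early G1, 7 partners were called lower and 1 higher (Phf8 again), and the median was 0.33 for the subunits, against -0.68 for the partners and 0.30 for all genes, of which 17.7% were called higher and 9.53% lower. In late G1 against asynchronous cells, 4 of the 8 feeder markers present were called higher and 1 lower, with a median log2 ratio of 1.01 and summed signals of 128 in late G1 and 85.4 in asynchronous cells, and their part in these values was not tested. The lists do not overlap in genes but were chosen with earlier results of these data known, so the difference between them is a description.

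Plk1, the mitotic kinase that phosphorylates condensin II, had 0.844 in mitosis, 7.17 in early G1 and 5.38 in late G1, against 51.1 in asynchronous cells. Top2a, which encodes the topoisomerase that untangles chromosomes alongside condensin, had 2.37, 6.48, 12.5 and 76.3 in the same order. Ccnb1 and Cdk1 encode the cyclin and the kinase whose activity drives entry into mitosis and activates condensin. Ccnb1 had 4.05, 22.7, 17.2 and 67.4, and Cdk1 2.39, 25.2, 24.1 and 69.4. Aurkb, the kinase gene of the chromosomal passenger complex, had 1.24, 7.09, 6.95 and 20.7. Mki67, whose product coats mitotic chromosomes, had 1.45, 4.12, 6.77 and 22.8. These 6 were named for having the largest late G1 ratios of the list in either direction, so they are its extremes. In late G1, 14 of the 18 partners were below the asynchronous level and 4 above it. The CHR core was in 5 of the 7 matched promoters of the subunits, against 8 of 14 for this list. Among the partners it was in Plk1 and Top2a, at log2 -3.22 and -2.60 in late G1 over asynchronous cells. It was also in Mki67 (-1.74), Cdk1 (-1.52), Kif4 (-1.17), Kmt5a (-1.16), Cdca8 (-0.96) and Ttk (-0.40). The subunits with the core were Ncapd2 at -0.92, Smc2 at -0.29, Ncapg at -0.14, Ncapg2 at 0.15 and Ncaph2 at 0.47. Any part of the core in these levels was not tested.

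**Figure D4:**
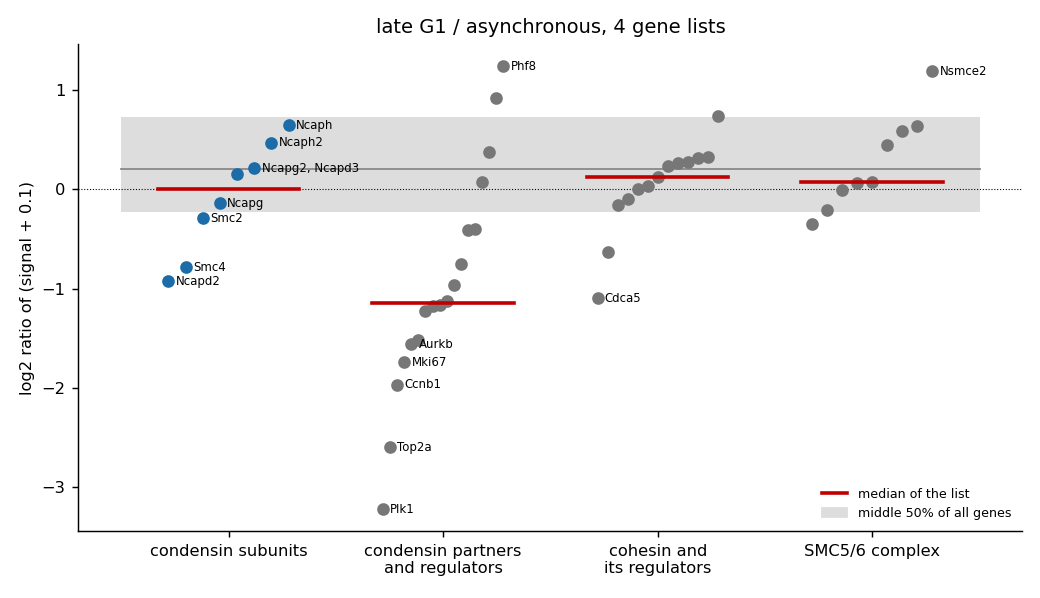
Log2 ratio of (signal + 0.1) in late G1 over asynchronous cells for each gene of 4 lists (dots, in order within a list), with the list's median in red, the median gene as a line and the middle 50% of all genes as a grey band. The condensin subunits run from -0.92 to 0.64, and the partners and regulators reach down to -3.22 at Plk1.

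The other SMC complexes gave a second yardstick. Cohesin, which holds sister chromatids together and forms interphase loops, was taken with its loaders, releasers and acetyltransferases (13 genes). SMC5/6 serves DNA repair (9 genes). In early G1 the median ratio to asynchronous cells on the log2 scale was 0.33 for the condensin subunits, against 0.93 for cohesin and 0.74 for SMC5/6. In late G1 the medians were 0.01 for the condensin subunits, against 0.12 for cohesin and 0.08 for SMC5/6. The SMC genes of all 3 complexes had lower signals in late G1 than in early G1, with Smc2 and Smc4 at log2 -0.83 and -0.92, Smc1a and Smc3 at -0.58 and -0.61, and Smc5 and Smc6 at -0.77 and -1.09. This was not particular to the SMC genes. Over the whole lists, 11 of the 13 cohesin genes and 7 of the 9 SMC5/6 genes were lower, with medians of -0.82 and -0.55.

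In both lists, genes other than the ATPase genes had the largest differences between late G1 and asynchronous cells. Cdca5, which encodes the cohesion protector sororin, had 2.37 in mitosis, 26.9 in early G1 and 27.0 in late G1, against 57.8 in asynchronous cells, a course close to that of the mitotic partners. Nsmce2, a SUMO ligase gene of SMC5/6, had 0.372, 8.80, 11.9 and 5.15, and was called higher in late G1. The condensin subunits kept 4.09% to 6.59% of their asynchronous signal in mitosis, while Esco2, a cohesin acetyltransferase gene, kept 80.9% (6.98 in mitosis against 8.62 in asynchronous cells). The other 12 cohesin genes kept 3.88% (Mau2) to 7.90% (Smc3), about as much as the condensin subunits. Stag1, the gene of a cohesin subunit, had 0.387, 11.6, 9.85 and 5.85.

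The starts of 4 of the 8 condensin genes lie head to head with another gene within 2000 bp in the table, compared with 11.9% of all its genes. These pairs run outward on opposite strands from a shared stretch of DNA. Smc4 faces Ift80, a cilium gene, at 465 bp. Ncapd2 faces Mrpl51, a mitochondrial ribosomal protein gene, at 100 bp. Ncapd3 faces Vps26b, a retromer gene, at 584 bp, and Ncaph2 faces Lmf2 at 107 bp.

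The 4 pairs are set beside all head-to-head pairs of the table, by the absolute difference of the same log2 ratio. Mrpl51 had 9.06 in mitosis, 90.3 in early G1 and 52.1 in late G1, against 43.5 in asynchronous cells. Ncapd2 kept 4.09% of its asynchronous signal in mitosis, against 20.8% for Mrpl51, and Ncapd2 minus Mrpl51 was -1.69 in the log2 ratio of early G1 to asynchronous cells. Across 896 head-to-head pairs in the table the median absolute difference of this ratio was 0.57, with an upper quartile of 0.96. The Mrpl51 start used in the table lies inside the RefSeq span of Ncapd2, which reaches 125192100, so signal there cannot be assigned to either with certainty.

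Ift80 had 0.313, 8.38, 8.004 and 3.94 in the same order of groups. Smc4 minus Ift80 was -1.79 in the log2 ratio of late G1 to asynchronous cells, against a median absolute difference of 0.52 and an upper quartile of 0.90 over 892 pairs. Vps26b had 0.809, 27.8, 29.2 and 14.4. Ncapd3 and Vps26b were alike in early G1, at 0.98 and 0.94, and parted by late G1, at 0.21 and 1.01. Their late G1 difference of -0.80 was in absolute value above that median of 0.52 but below the upper quartile of 0.90. Lmf2 had 1.46, 21.2, 17.9 and 19.4, and Ncaph2 was 0.59 above it in late G1 relative to asynchronous cells, also below that upper quartile.

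**Figure D5:**
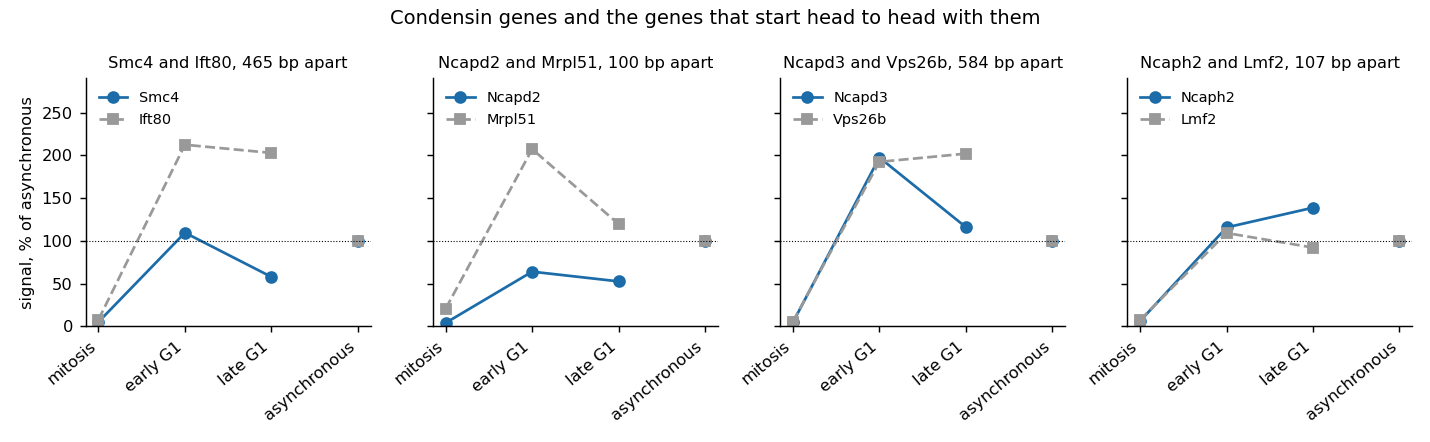
Signal as a percentage of the asynchronous signal (vertical axis) in mitosis, early G1 and late G1 (joined points) and asynchronous cells (single point, 100% by definition) for 4 condensin genes (blue circles) and the genes that start head to head with them (grey squares). Ncapd3 and Vps26b lie together in early G1 and apart in late G1. Their late G1 log2 difference of -0.80 was in absolute value below the upper quartile of 0.90 over all head-to-head pairs. Ncapd2 kept 4.09% in mitosis, against 20.8% for Mrpl51.

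Among 7028 other genes of at least median level, those nearest to the median course of the 8 subunits were Ago2, Armc10, Phf5a, Vps51 and Ptbp1, with Euclidean distances of 0.04 to 0.08 over the log2 ratios of 3 groups to asynchronous cells. Pairs of subunits had a median distance of 0.85, so the median course need not be that of any subunit. Picking the nearest of 7028 genes yields small distances by selection, also for single subunits. Ago2 had 1.19 in mitosis, 28.1 in early G1 and 22.2 in late G1, against 21.9 in asynchronous cells. All 5 are in the class Early_Plateau. Taken singly, the nearest gene was Mcm9 for Smc2, Trap1a for Smc4, Dkc1 for Ncapd2, Cct2 for Ncapg, Ergic3 for Ncaph, Med26 for Ncapd3, Tcf20 for Ncapg2 and Tyw3 for Ncaph2, at distances of 0.03 to 0.10.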

How the data were processed

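PRO-seq was analysed in the groups mitosis, early G1, late G1 and asynchronous, with 2 libraries each in the labels and 1 column each in the table. The authors deposited a normalized signal per gene, per the file headers. The submitters' processing notes name the genome build GRCm38 (mm10) and the tools Bowtie2, cutadapt, SAMtools and Picard. The sources used here do not say how libraries were combined and scaled, or whether strand was used. The deposited columns sum to 16863, 361203, 326086 and 309144, so they were not brought to a common total. The authors also deposited a text label per gene (temporal class, another kind of unit).

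From these values, log2 ratios of (signal + 0.1) were computed in 5 comparisons with Python 3.11.15, numpy 2.4.6 and pandas 2.3.3. Genes with a mean signal under 0.5 (47 genes) and, in a given comparison, genes at 0 in either column were left out; all 8 subunits were kept. A call is a change of at least 2-fold, not a test, since 1 column per group allows none. The pseudocount understates the fold of low genes. Depth is unknown, so no interval is given. The ratio and call steps were tested on simulated data.

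Named genes are all 8 subunits, up to 6 genes of each related list with the largest absolute late G1 ratio to asynchronous cells, the nearest courses and the head-to-head neighbours. Phf8, Kif4, Kmt5a, Cdca8, Ttk, Smc5, Mau2, Twist1 and Fn1 fall outside this rule and were named after their values were seen. The subunits and lists were chosen with earlier results of these data known. The table's Start column was read as 1-based, since it equalled a RefSeq start for 2724 of 11496 genes and the End column for 104. Promoters and microRNAs are from RefSeq, GRCm38.p6.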

Additional observations from a re-analysis of the deposited data

How the results depend on the processing

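No paired analysis was possible because the table holds 1 column per group, and for the same reason no replicate could be left out. Over 5 comparisons and 8 alternatives, 268 values of single subunits kept their direction and their side of the 2-fold line, 16 reversed, 16 fell short of the line, 12 passed it and 8 moved otherwise. The settings that only filter genes or move the line leave every subunit ratio unchanged. Part of the 268 was therefore fixed by construction. Scaling decides the comparisons with mitosis, since equal medians and quantile normalization remove a shift shared by most genes by construction. With equal medians the subunits' median log2 ratio of mitosis to asynchronous cells was 0.0243 and 0 subunits were called lower, with 1378 genes higher and 1003 lower. With quantile normalization it was -0.00442 and 0, with 1241 and 972. In that comparison the median of all genes turned to 0.0468 and 0.0232, Ncapg to 0.34 and 0.35, Ncaph to 0.0497 and 0.0139, Ncapg2 to 0.12 and 0.12, and Ncaph2 to 0.26 and 0.11 (equal medians, then quantile normalization). For early G1 against mitosis the subunits' median turned to -0.0673 and -0.10 with 0 called higher, and all genes gave 706 higher and 1974 lower, then 802 and 1290. The median of all genes turned to -0.0683 with equal medians. Smc4 turned to -0.19 and -0.20, Ncapd2 to -0.62 and -0.63, Ncapg to -0.42 and -0.37, and Ncaph2 to -0.37 and -0.27.

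For early G1 against asynchronous cells, equal medians gave 1267 genes higher and 2166 lower (2596 and 1397 of 14661 as reported). Quantile normalization gave 1367 genes higher and 1634 lower, and beside these 1 subunit lower (Ncapd2, log2 -1.04). A minimum mean of 2.5 gave 925 genes lower. For late G1 against asynchronous cells the subunits' median was -0.20 with equal medians and -0.28 with quantile normalization, each with 1 subunit lower (Ncapd2). All genes then gave 1155 lower with equal medians (755 of 14695 as reported). With quantile normalization they gave 1623 higher and 1469 lower (2483 and 755 as reported). A minimum mean of 2.5 gave 1637 higher there, and 1255 higher for late against early G1 (2226 as reported). For all genes, few were higher in mitosis than in asynchronous cells: 3 as reported, 5 with a pseudocount of 0.02, 7 at 1.5-fold and 31 with genes at 0 kept. Few were lower in early G1 than in mitosis: 1 as reported, 3 with a pseudocount of 0.02, 0 with 0.5, 5 at 1.5-fold and 27 with genes at 0 kept.

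A call at 1.5-fold takes in more genes by construction. It called 2 subunits higher (Ncapd3, Ncapg2) and 1 lower (Ncapd2) in early G1 against asynchronous cells. Of the 14661 genes with a ratio there, it called 5337 higher and 2526 lower. It called 3 subunits lower (Smc2, Smc4, Ncapd3) in late against early G1, beside 3646 genes higher and 3456 lower of 14699. In late G1 against asynchronous cells it called 1 subunit higher (Ncaph) and 2 lower (Smc4, Ncapd2). Beside these, 4484 genes were called higher and 1804 lower of 14695. For the changes with scaling, the cause was not tested beyond the fact that both settings bring the columns to a common level.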
